A study of Homo sapiens with 15 samples.

Results

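The adult granulosa cell tumor mutation of FOXL2 was compared with wild-type FOXL2 in the presence of active FOXO1. The comparison used the 6 libraries whose labels name SMAD3, a FOXL2 plasmid and Foxo13A, 3 with wild-type FOXL2 (FOXL2-WT + FOXO1) and 3 with the C134W mutant (FOXL2-C134W + FOXO1), of 15 libraries in all. All libraries came from HGrC1 cells at passage 14, an immortalized line of human granulosa cells, not luteinized, whose own FOXL2 alleles are normal. Cells of both groups were transfected with SMAD3 and with FOXO1-3A, a FOXO1 in which the 3 residues that AKT phosphorylates are alanine, so that the protein stays in the nucleus, and differed by label only in the FOXL2 plasmid. Transfection by Lipofectamine lasted 4 hours and was followed by 24 hours without serum. The other 9 libraries received empty vectors (Vectors), or SMAD3 with wild-type FOXL2 or FOXL2-C134W and no FOXO1 plasmid (FOXL2-WT and FOXL2-C134W), with 3 libraries each. The last pair of conditions allowed the same substitution to be read without FOXO1, in libraries that none of the first comparison shares. In that pair the transfected genes differed more, with FOXL2 at 561 ± 5.89 CPM with the wild type and 147.0 ± 27 CPM with the mutant (-1.93) and SMAD3 at 2768 ± 154 and 843 ± 37.4 CPM (-1.72, both log2 fold changes). Transfection was transient and in 1 cell line, and the labels do not say whether the 3 lettered replicates A, B and C were separate experiments, so p-values measure the spread between these wells and may be in part technical.

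FOXL2 is a forkhead transcription factor that maintains granulosa cell identity in the ovary. Nearly all adult granulosa cell tumors carry the single substitution C134W, a cysteine changed to tryptophan in its DNA-binding domain. SMAD3 carries signals of TGF-beta and activin receptors into the nucleus and binds FOXL2. FOXO1 is another forkhead factor, held in the cytoplasm when AKT is active, that in granulosa cells restrains proliferation, promotes apoptosis. The question set by the design is what distinguishes mutant from wild-type FOXL2 when FOXO1 activity is restored.

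The 6 libraries held between 14962245 and 23502340 estimated counts, the lowest in FOXL2-WT + FOXO1 replicate A. Chi-square values of 2.82 to 7.23 for each degree of freedom showed spread beyond counting noise between replicate libraries. FOXL2-WT + FOXO1 replicate A and FOXL2-C134W + FOXO1 replicate C stood apart in opposite directions by gene length. The shortest length quintile of genes deviated from the mean of all 6 libraries by a median of 0.12 (log2 scale) in the former. In the latter it deviated by -0.09, and these values include any difference between the conditions. Mitochondrially encoded transcripts took 0.220% to 0.252% of counts and ribosomal protein genes 3.85% to 4.92%. The summed level of 22 granulosa cell markers was 4971 to 5218 CPM (counts scaled to library size after TMM normalization) in FOXL2-WT + FOXO1. In FOXL2-C134W + FOXO1 it was 4917 to 5219 CPM. These sums include the transfected FOXL2, at means of 384 and 152 CPM, against 8.73 CPM in Vectors. The cells expressed GATA4, WT1, KRT8 and KRT18. FSHR, the receptor for follicle-stimulating hormone, had 0 counts in all 6 libraries, and CYP19A1 (aromatase), INHA, ESR1, ESR2 and HSD3B2 had at most 3 counts, so several defining genes of steroidogenic granulosa cells were at the floor. Of 22 markers of other cell types, 9 had at least 1 CPM in each of the 6 libraries, and CD3E, MS4A1, LHCGR and DDX4 were at 0. The summed level was 1727 to 1922 CPM and 1818 to 2076 CPM. The 11 that passed the filter for testing were 4 endothelial, 4 epithelial, 1 immune, 1 smooth muscle and 1 oocyte marker. In such bulk libraries fewer cells expressing a gene and less RNA per cell cannot be told apart.

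The transfected genes were examined first. FOXL2 was at 376, 374 and 401 CPM in FOXL2-WT + FOXO1 and at 142, 176 and 139 CPM in FOXL2-C134W + FOXO1. SMAD3 was at 976, 957 and 975 CPM in the wild-type group and at 379, 411 and 385 CPM in the mutant group. FOXO1 was at 104, 116 and 133 CPM against 43.3, 47.2 and 39.1 CPM. All 3 transfected genes were thus lower in every mutant library than in any wild-type library. The log2 fold changes were -1.33 for FOXL2 (standard error 0.10, edgeR adjusted p = 1.9e-07), -1.31 for SMAD3 (standard error 0.05, edgeR adjusted p = 4.6e-12) and -1.44 for FOXO1 (standard error 0.08, edgeR adjusted p = 2.6e-09). Endogenous and plasmid transcripts are counted together, as are mutant and wild-type FOXL2. SMAD3 and FOXL2 were called under all 11 alternatives and FOXO1 under 10. DESeq2 on the deposited counts gave FOXO1 the same fold change of -1.44 without an adjusted p. With transcript length offsets in DESeq2 the sizes were larger for SMAD3 (-1.93) and FOXO1 (-1.98), and FOXL2 was at -1.32. In Vectors the endogenous level was 8.73 ± 0.705 CPM for FOXL2, 249 ± 11.99 CPM for SMAD3 and 13.2 ± 0.867 CPM for FOXO1 (SD, n = 3). The 2 conditions therefore differed both in the FOXL2 allele and in the RNA level of FOXL2, SMAD3 and FOXO1, and these cannot be told apart in the RNA counts described here. Protein levels, for which the study used immunoblots, were not analysed here. FOXL2 lies on chromosome 3 (chr3:138944224-138947137, GRCh38), SMAD3 on chromosome 15 (chr15:67063763-67195173) and FOXO1 on chromosome 13 (chr13:40555667-40666641).

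**Figure D1:**
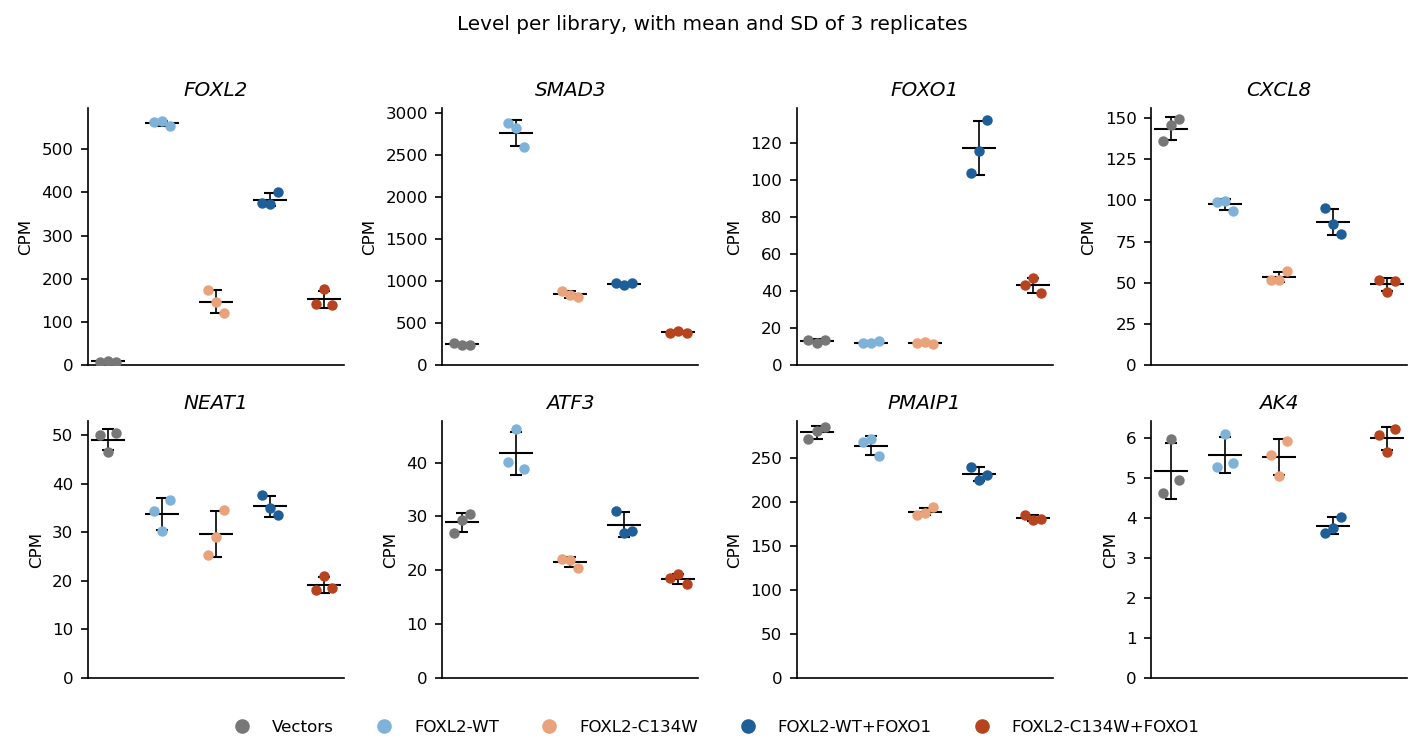
Level in CPM (vertical axes, from 0) of the 3 transfected genes and of 5 other genes called between the FOXO1 conditions, in every library of the 5 conditions. Points are libraries, and bars give the mean and SD of 3 replicates. In the FOXO1 conditions FOXL2, SMAD3, FOXO1, CXCL8, NEAT1, ATF3 and PMAIP1 lie lower in every FOXL2-C134W library, and AK4 lies higher.

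Few other genes were called. At a Benjamini-Hochberg adjusted p under 0.05, 20 of 13868 genes tested were called (0.144%), 15 lower (0.108%) and 5 higher (0.0361%) in FOXL2-C134W + FOXO1. Without the transfected genes, 12 were lower and 5 higher, of which 6 changed by more than 1.5-fold. At an unadjusted p under 0.05 there were 1878 genes (13.5%), 985 lower (7.1%) and 893 higher (6.44%). The replicates of the 2 conditions did not overlap in 2102 genes (15.2%), 1081 lower (7.79%) and 1021 higher (7.36%). The median absolute log2 fold change over all genes was 0.0826, and the median standard error was 0.0791. A gene that was not called is not thereby shown to be unchanged. The number called rested on the test and the filter, with 9 genes when only the 6 libraries were fitted, 63 with DESeq2 and transcript length offsets, 141 with DESeq2 on the deposited counts, which gave no adjusted p for 9203 of the genes, and 446 when any gene with a count was kept. It fell to 7 without FOXL2-C134W + FOXO1 replicate A, to 11 without replicate C of that group, and to 12 and 13 without FOXL2-WT + FOXO1 replicates B and A. CXCL8, PMAIP1, FOXL2 and SMAD3 were called under each of the 11 alternatives and without each of the 6 libraries. Fitting only the 6 libraries kept 8 of the 20 calls, namely FOXL2, SMAD3, FOXO1, CXCL8, NEAT1, ATF3, PMAIP1 and STK19B.

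CXCL8 encodes interleukin-8, a chemokine that attracts neutrophils. Its level was 95.4, 85.9 and 79.5 CPM in FOXL2-WT + FOXO1 and 51.8, 44.6 and 51.2 CPM in FOXL2-C134W + FOXO1. The groups did not overlap, and CXCL8 fell by 0.82 on the log2 scale (95% confidence interval -0.96 to -0.67, edgeR adjusted p = 2.1e-06). The difference without FOXO1 was nearly as large, at -0.86 (edgeR adjusted p = 5.5e-07), and the test of the difference between the 2 comparisons gave 0.05 (standard error 0.10, edgeR adjusted p = 0.90). Vectors stood above all of these conditions, at 143.5 ± 6.92 CPM. TNFAIP3, which encodes the A20 ubiquitin-editing enzyme that limits NF-kappaB signaling, was at 62.0, 68.0 and 71.3 CPM with wild-type FOXL2 and at 53.7, 53.9 and 56.9 CPM with the mutant. It fell by 0.29 (standard error 0.05, edgeR adjusted p = 0.027), but was no longer called without any one of 5 of the 6 libraries, FOXL2-WT + FOXO1 replicate A being the exception. ZFP36L2, an RNA-binding protein that promotes decay of AU-rich mRNAs, was at 62.4, 61.9 and 61.8 CPM in the wild-type libraries, nearly without spread, and at 45.9, 51.8 and 49.0 CPM in the mutant ones. Its log2 fold change was -0.34 (standard error 0.05, edgeR adjusted p = 0.0054), and this call was lost without FOXL2-C134W + FOXO1 replicate A.

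PMAIP1 encodes NOXA, a BH3-only protein that promotes apoptosis. It was at 240.3, 225 and 231 CPM in FOXL2-WT + FOXO1 and at 186, 179.7 and 181 CPM in FOXL2-C134W + FOXO1. It fell by 0.35 (standard error 0.04, edgeR adjusted p = 1.4e-04), and the lowest wild-type library stood above the highest mutant one. PIK3IP1, an inhibitor of PI3-kinase and a known FOXO target, was at 6.73, 5.94 and 5.92 CPM against 3.74, 3.66 and 3.91 CPM. It fell by 0.71 (standard error 0.13, edgeR adjusted p = 0.035), a call that leaving out any library removed, with values between -0.74 and -0.65 over all alternatives and libraries left out. ATF3, a stress-induced factor of the ATF/CREB family, was at 31.1, 26.96 and 27.4 CPM against 18.6, 19.3 and 17.4 CPM and fell by 0.62 (standard error 0.08, edgeR adjusted p = 6.5e-04). The groups of ATF3 were well separated, and the call held without each of the 6 libraries. DESeq2 gave ATF3 -0.62 without an adjusted p, and with transcript length offsets -0.58 (DESeq2 adjusted p = 0.10). KLF4, a zinc-finger factor of growth arrest and differentiation, was at 12.3, 12.4 and 13.4 CPM against 8.17, 8.95 and 9.46 CPM and fell by 0.52 (standard error 0.08, edgeR adjusted p = 0.0075). This call was lost without FOXL2-C134W + FOXO1 replicate A, and with transcript length offsets in DESeq2 the value was -0.30. For all 4 genes the difference without FOXO1 was also called, at -0.48, -0.64, -0.95 and -0.79 in this order, and none differed between the comparisons past the threshold.

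NEAT1, the long noncoding RNA that builds nuclear paraspeckles, had the lowest fold change among called genes other than the transfected ones and STK19B. It was at 37.6, 34.9 and 33.5 CPM in FOXL2-WT + FOXO1 and at 18.1, 21.1 and 18.5 CPM in FOXL2-C134W + FOXO1. NEAT1 fell by 0.87 (95% confidence interval -1.08 to -0.67, edgeR adjusted p = 1.4e-04), and the call held without each of the 6 libraries and under the 10 alternatives that gave an adjusted p. DESeq2 on the deposited counts gave -0.88 without one. Without FOXO1 the level was 33.8 ± 3.23 CPM with wild-type FOXL2 and 29.7 ± 4.74 CPM with the mutant, a change of -0.20 that did not pass the test (edgeR adjusted p = 0.20). NEAT1 was the only gene besides the transfected ones that was called both with FOXO1 and in the difference between the comparisons, at -0.68 (standard error 0.14, edgeR adjusted p = 0.018). SELENOW, a small selenoprotein, was at 67.2, 54.7 and 50.6 CPM against 40.7, 40.3 and 34.1 CPM and fell by 0.57 (standard error 0.10, edgeR adjusted p = 0.016). NDRG2, a member of the N-myc downstream-regulated family, was at 22.1, 18.6 and 17.1 CPM against 14.5, 14.2 and 13.5 CPM and fell by 0.45 (standard error 0.08, edgeR adjusted p = 0.027). SAT1, the enzyme that acetylates spermidine and spermine, was at 68.4, 59.4 and 67.0 CPM against 52.3, 48.0 and 52.5 CPM and fell by 0.35 (standard error 0.06, edgeR adjusted p = 0.027). In SELENOW and NDRG2 the highest wild-type library was replicate A, the shallowest of the 6 and the one with higher levels of short genes. Without that library SELENOW was at -0.46 and NDRG2 at -0.35, no longer called (edgeR adjusted p = 0.062 and 0.10), whereas with gene length offsets both were called, at -0.47 and -0.42 (edgeR adjusted p = 8.2e-04 and 0.018). SAT1 was not called either without it, nor without 4 others. SELENOW was also not called without FOXL2-C134W + FOXO1 replicate A or C, and NDRG2 stayed called in 1 of the 6 sets with a library left out.

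The 5 higher genes changed less, apart from AK4. AK4 encodes an adenylate kinase of the mitochondrial matrix. Its level was low, 3.63, 3.76 and 4.04 CPM in FOXL2-WT + FOXO1 and 6.09, 5.67 and 6.24 CPM in FOXL2-C134W + FOXO1, and it rose by 0.65 (standard error 0.12, edgeR adjusted p = 0.035). It was not called without any one of the 6 libraries. In Vectors, FOXL2-WT and FOXL2-C134W the mean of AK4 lay between 5.19 and 5.59 CPM, so FOXL2-WT + FOXO1 was the condition with the lowest mean. F3, tissue factor, the cell surface initiator of coagulation, was at 523, 497 and 564 CPM against 635, 611 and 626 CPM and rose by 0.24 (standard error 0.04, edgeR adjusted p = 0.032). GEMIN5, the subunit of the SMN complex that recognizes small nuclear RNAs, was at 64.0, 65.6 and 68.2 CPM against 78.4, 75.4 and 80.4 CPM (0.24, standard error 0.04, edgeR adjusted p = 0.027), and gave 0.50 with transcript length offsets in DESeq2. ZNF185, an actin-associated LIM protein, was at 87.7, 93.4 and 91.0 CPM against 105.3, 107 and 106 CPM (0.22, standard error 0.04, edgeR adjusted p = 0.022). ANKRD13A, a ubiquitin-binding regulator of receptor internalization, was at 169, 172 and 179 CPM against 197, 192 and 202 CPM (0.18, standard error 0.04, edgeR adjusted p = 0.049). The groups did not overlap in any of the 5. F3, ZNF185 and ANKRD13A each stayed called in 1 and GEMIN5 in 2 of the 6 sets with a library left out. None of the 5 was called when only the 6 libraries were fitted. AK4, GEMIN5 and ANKRD13A were also not called with the replicate block. STK19B, a partial copy of STK19 on chromosome 6, had 28, 19 and 15 counts in FOXL2-WT + FOXO1 and 0 in all 3 libraries of FOXL2-C134W + FOXO1. Against 3 counts over the mutant group its level was at least 24.7-fold lower (edgeR adjusted p = 0.034). Reads from near-identical copies can be divided between genes, so this value is uncertain, and STK19B was also at 0 in Vectors.

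**Figure D2:**
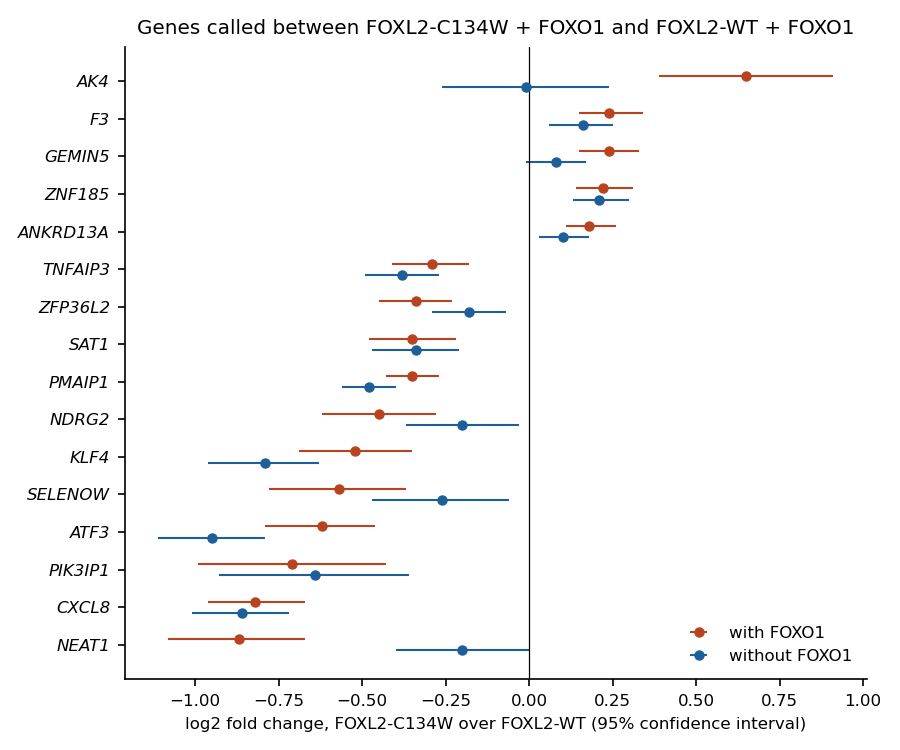
Log2 fold change of FOXL2-C134W over FOXL2-WT (horizontal axis) with 95% confidence intervals for 16 called genes, with FOXO1 (red) and without (blue). STK19B, at 0 in one group, and the transfected genes are not drawn. All 16 intervals with FOXO1 exclude 0. For CXCL8, PIK3IP1, SAT1 and ZNF185 both estimates nearly coincide, whereas for NEAT1 and AK4 the estimates without FOXO1 are -0.20 and -0.01.

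Relative to Vectors, 9 of the 12 lower genes had a Vectors mean above both FOXO1 conditions, and 4 of the 5 higher genes had one below both. Over all genes tested, Vectors lay above both conditions in 34.6% and below both in 35.6%. Those 13 genes were taken by direction and Vectors position, so by this choice the mutant condition was farther from Vectors than the wild-type condition. FOXL2, SMAD3 and FOXO1 mRNA were nearer to their Vectors levels with the mutant. The cause of these positions was not tested. The other 3 lower genes were SELENOW and ZFP36L2, at 45.5 ± 3.16 and 60.5 ± 1.60 CPM in Vectors and thus between the conditions, and STK19B, at 0 in Vectors as in the mutant.

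Promoter sequences are shown for 3 called genes in whose windows a short letter pattern of a forkhead, AP-1 or NF-kappaB element was found. RefSeq windows (GRCh38.p14) of 250 bases before each annotated start were present for 13 of the 17 called genes, 9 lower and 4 higher, and for 10794 of the genes tested. The letters of 6 patterns were searched on both strands, namely GTAAACA for forkhead factors, GTCTAGAC and CAGACA for SMAD, TGACGTCA for CRE, TGANTCA for AP-1 and GGAATTTCC for NF-kappaB. They were chosen with the sequences in view, and no matches overlap in the windows shown. Capitals mark the matches, and each sequence runs 5′ to 3′ on the strand of the gene. The CXCL8 window (chr4:73740319-73740568, plus strand) holds TGACTCA, which begins 137 bases before the start, and GGAATTTCC, 91 bases before it. One of 5 windows of NDRG2 (chr14:21025106-21025355, minus strand) holds TGTTTAC, the reverse complement of the forkhead pattern, 72 bases before the start. The F3 window (chr1:94541760-94542009, minus strand) holds TGAATCA and TGAGTCA, 223 and 210 bases before the start.
CXCL8: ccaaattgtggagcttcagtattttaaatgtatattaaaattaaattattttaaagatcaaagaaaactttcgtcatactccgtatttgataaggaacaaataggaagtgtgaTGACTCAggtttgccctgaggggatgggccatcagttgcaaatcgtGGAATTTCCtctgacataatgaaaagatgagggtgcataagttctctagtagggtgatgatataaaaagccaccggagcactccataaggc
NDRG2: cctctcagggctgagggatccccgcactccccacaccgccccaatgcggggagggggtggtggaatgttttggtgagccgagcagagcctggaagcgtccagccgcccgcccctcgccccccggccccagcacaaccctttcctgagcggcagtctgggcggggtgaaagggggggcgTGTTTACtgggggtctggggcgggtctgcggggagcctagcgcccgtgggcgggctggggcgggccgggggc
F3: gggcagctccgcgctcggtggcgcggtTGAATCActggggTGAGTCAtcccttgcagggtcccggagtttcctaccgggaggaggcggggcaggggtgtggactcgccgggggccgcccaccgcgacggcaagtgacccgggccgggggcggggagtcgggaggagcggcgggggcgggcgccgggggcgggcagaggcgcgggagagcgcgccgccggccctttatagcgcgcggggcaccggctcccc

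The forkhead pattern was present in 1 of the 9 lower genes with a window (NDRG2, in 3 of its windows, of which 2 overlap and share 1 match) and in none of the 4 higher ones, against 3.01% of all genes tested with a window. The AP-1 pattern was found in 1 lower gene (CXCL8) and 1 higher gene (F3), against 6.19% of all genes. GGAATTTCC was found in CXCL8 and in another window of NDRG2, against 0.565%. CAGACA was found in 1 gene, ZNF185, against 14% of all genes, and neither GTCTAGAC nor TGACGTCA occurred in the called genes, against 0.167% and 3.39%. These matches describe the letters of the windows only. The patterns were chosen with the sequences in view, so the shares over all genes are no test of enrichment.

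Genes of the pathways in which the called genes lie were examined next, from lists fixed by role. Over all genes tested the median log2 fold change was -0.00093. Of the NF-kappaB and inflammatory genes, 36 of 37 were tested. CXCL8 and TNFAIP3 were called lower and none higher, against 0.108% and 0.0361% of all genes, and the median was -0.21. The replicates did not overlap in 16, all lower, against 7.79% lower among all genes. The lower position was most marked in the 17 cytokines and chemokines, with a median of -0.35 and 16 of 17 below 0. CXCL2 was at 9.22, 9.61 and 10.1 CPM against 6.60, 5.71 and 7.35 CPM, with a log2 fold change of -0.56 that did not pass the test (edgeR adjusted p = 0.081). IL6 was at 10.2, 9.74 and 10.1 CPM against 8.86, 6.48 and 8.21 CPM (-0.35, edgeR adjusted p = 0.22). The other neutrophil-attracting chemokines CXCL1 and CXCL3, at 2.60 and 2.49 CPM in FOXL2-WT + FOXO1, gave -0.46 and -0.73 without passing (edgeR adjusted p = 0.25 and 0.21). NFKBIA, the inhibitor of NF-kappaB, was at 90.2, 90.2 and 91.9 CPM against 87.9, 85.1 and 85.2 CPM (-0.08, edgeR adjusted p = 0.37). The subunits and inhibitors as a group had a median of -0.08, and the median of the whole list stayed between -0.22 and -0.16 under all alternatives and with each library left out.

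Among FOXO target genes 31 of 36 were tested, and 28 of the 31 lay below 0 in the group with less FOXO1 mRNA. PMAIP1 and PIK3IP1 were called lower and none higher, the median was -0.16, and 11 did not overlap between the groups, all lower, against 0.108% called lower and 7.79% lower without overlap among all genes. The median ranged from -0.20 to -0.08 over the alternatives and the libraries left out. CCNG2, cyclin G2, was at 22.5, 24.8 and 24.4 CPM against 18.2, 17.6 and 19.9 CPM (-0.37, edgeR adjusted p = 0.12). CDKN1B, the CDK inhibitor p27, was at 256, 249 and 255 CPM against 224, 223 and 222 CPM, a change of -0.18 that narrowly missed the threshold (edgeR adjusted p = 0.055). GABARAPL1, of autophagosome formation, gave -0.32 (edgeR adjusted p = 0.080), and SOD2, the mitochondrial superoxide dismutase, gave -0.27 (edgeR adjusted p = 0.12). The median without FOXO1 was also -0.16. Between those conditions FOXO1 mRNA did not differ past the threshold (-0.03, edgeR adjusted p = 0.88), whereas FOXL2 and SMAD3 mRNA did (-1.93 and -1.72). The cause of the medians was not tested. Without FOXO1 11 members were called lower and 2 higher, against 4.12% and 7.13% of all genes. ULK1, the kinase that starts autophagy, was one of the latter 2, at 0.24 without FOXO1 and -0.30 with it, and the difference between the comparisons was called (-0.54, edgeR adjusted p = 0.017).

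In the integrated stress response, the pathway that raises ATF4 when translation initiation is limited, 48 of 49 genes were tested. The median was -0.06, and 35 of the 48 lay below 0. ATF3 alone was called, lower, where 0.108% of all genes were called lower. Replicates did not overlap in 13 lower and 1 higher, against 7.79% and 7.36% of all genes. ATF4 was at 501, 474 and 472 CPM against 426, 426 and 430.3 CPM, which did not overlap but did not pass the test (-0.17, edgeR adjusted p = 0.12). NUPR1 gave -0.30 (edgeR adjusted p = 0.10) and DDIT3, which encodes CHOP, gave -0.17 (edgeR adjusted p = 0.38), whereas the 12 tRNA synthetases had a median near 0. Without FOXO1 21 members were called lower, with a median of -0.17, where 4.12% of all genes were called lower and 7.13% higher. Of the interferon genes 64 of 68 were tested. With FOXO1 edgeR called none (median -0.03) and DESeq2 2. An unadjusted p under 0.05 was found in 19, where 13.5% of all genes had one. Without FOXO1 edgeR called 25 lower and 2 higher (median -0.15). IFIT2, an interferon-induced inhibitor of translation, was at 325, 372 and 375 CPM against 241, 241 and 309 CPM. It missed the threshold narrowly (-0.44, edgeR adjusted p = 0.051), and it was called in 10 of the 11 alternatives, the interferon genes called reaching 9 when any gene with a count was kept. RSAD2, which encodes viperin, was at 113, 122 and 124 CPM against 115.5, 112 and 135 CPM, with overlapping groups (0.01, edgeR adjusted p = 0.97), whereas without FOXO1 it differed by -0.51 (edgeR adjusted p = 1.3e-04).

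Of the TGF-beta family genes other than SMAD3, edgeR called none and DESeq2 1. An unadjusted p under 0.05 was found in 8, where 13.5% of all genes had one. Of 59 genes, SMAD3 not included, 56 were tested, and the median was 0.02, with medians of -0.02 for ligands, 0.03 for receptors and 0.04 for target genes. TGFB1 was at 85.0, 78.7 and 77.3 CPM against 73.4, 80.1 and 70.7 CPM (-0.10, edgeR adjusted p = 0.47), and TGFB2 at 315, 305 and 316 CPM against 317, 316 and 328 CPM (0.04, edgeR adjusted p = 0.71). The groups overlapped for both ligands. TGIF1, a corepressor of SMADs, was at 99.04, 87.5 and 92.1 CPM against 75.4, 79.7 and 80.1 CPM, and CDKN2B, the CDK inhibitor p15 and a SMAD target, at 35.2, 40.1 and 39.0 CPM against 32.4, 29.4 and 31.2 CPM. Both missed the threshold narrowly (-0.24 and -0.30, edgeR adjusted p = 0.055 for each), and they were called in 7 of 11 and 6 of 10 alternatives that gave an adjusted p. Of the 12 target genes tested in the list, 2 were lower and 1 higher in every mutant library, where 15.2% of all genes did not overlap.

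**Figure D3:**
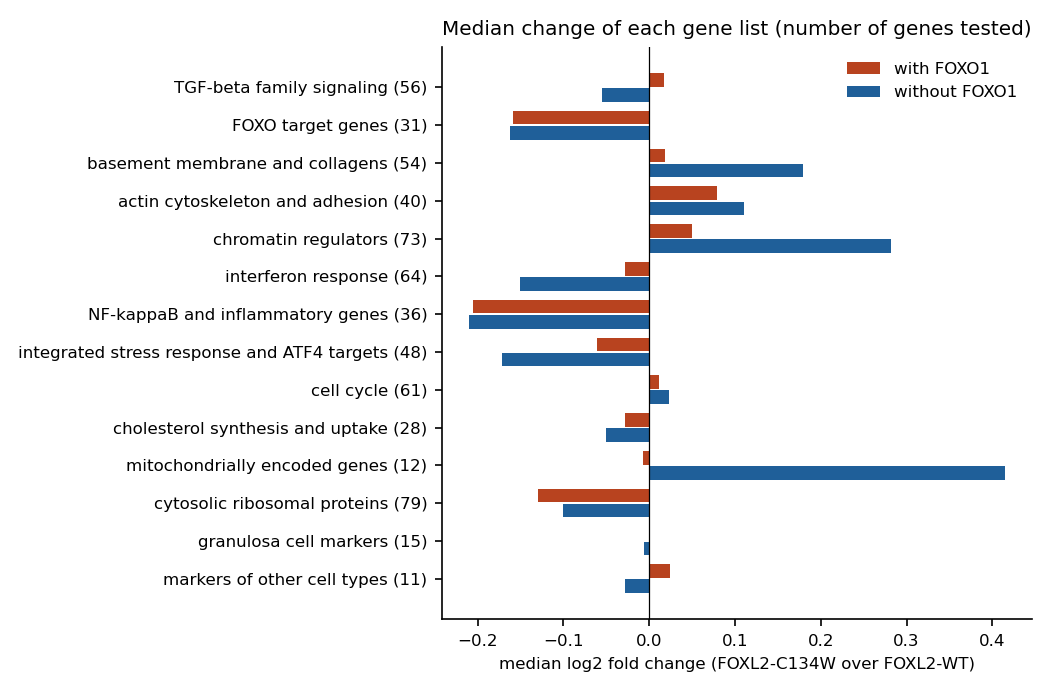
Median log2 fold change of FOXL2-C134W over FOXL2-WT (horizontal axis) for 14 gene lists, with FOXO1 (red) and without (blue). The number of genes tested stands in parentheses. The NF-kappaB and FOXO target lists have nearly the same median in both comparisons, whereas the medians of basement membrane, chromatin and mitochondrially encoded genes are near 0 with FOXO1 only.

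Gene lists with a wide gap between the comparisons were those of mitochondrially encoded, chromatin and basement membrane genes, with median differences of -0.36, -0.22 and -0.18. Without FOXO1, 1560 genes were called between FOXL2-C134W and FOXL2-WT (11.2%), 989 higher (7.13%) and 571 lower (4.12%), and the replicates of 4214 (30.4%) did not overlap, from libraries with nearly the same median standard error (0.0788). That count was 772 without FOXL2-WT replicate B and 782 and 866 without FOXL2-C134W replicates B and C. Of 73 chromatin regulators 41 were called higher without FOXO1 (median 0.28). With FOXO1 neither edgeR nor DESeq2 called any (median 0.05), and 3 had an unadjusted p under 0.05. Among all genes tested 13.5% had one with FOXO1, and the same share applies to the lists that follow. Of 54 tested genes of basement membrane and collagens 22 were called higher and 3 lower without FOXO1 (median 0.18). With FOXO1 edgeR called none (median 0.02) and DESeq2 2, and 11 had an unadjusted p under 0.05. For the 40 genes of actin cytoskeleton and adhesion 18 were called higher without FOXO1, and the medians were closer, at 0.11 without and 0.08 with it. With FOXO1 edgeR called none of them and DESeq2 6, and 17 had an unadjusted p under 0.05. With FOXO1 33 of the 40 lay above 0. Replicates did not overlap in 12 higher and 2 lower, against 7.36% and 7.79% of all genes. Mitochondrially encoded genes were called higher in 9 of 12 without FOXO1 (median 0.41). With it neither edgeR nor DESeq2 called any (median -0.01), and 0 had an unadjusted p under 0.05. Cell cycle genes had medians of 0.02 and 0.01, and 11 were called higher and 3 lower without FOXO1. With it edgeR called none and DESeq2 3, and 13 had an unadjusted p under 0.05. For the cholesterol genes the medians were -0.05 and -0.03, and 3 of 28 were called, all lower, without FOXO1, whereas with it edgeR called none and DESeq2 1, and 5 had an unadjusted p under 0.05. The 79 cytosolic ribosomal protein genes had medians of -0.10 and -0.13, and edgeR called none in either. With FOXO1 DESeq2 called 3, edgeR 31 when any gene with a count was kept, and 37 had an unadjusted p under 0.05. With FOXO1 76 of the 79 lay below 0, but only 50 did once gene length was taken into account, with a median of -0.02. The median of markers of other cell types was 0.02 with FOXO1 and -0.03 without, none called by edgeR or DESeq2 with FOXO1 and 1 at an unadjusted p under 0.05, and that of granulosa cell markers was close to 0 in both, with FOXL2 alone called.

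The gap was tested gene by gene as the difference between the 2 comparisons, that is, the change from FOXL2-WT + FOXO1 to FOXL2-C134W + FOXO1 minus the change from FOXL2-WT to FOXL2-C134W. It was called in 192 genes (1.38%), 173 negative (1.25%) and 19 positive (0.137%), and at an unadjusted p under 0.05 it was negative in 1047 (7.55%) and positive in 689 (4.97%). Without the transfected genes 189 were left, of which 184 were also called without FOXO1 and 1, NEAT1, with FOXO1. Their median absolute log2 fold change was 0.46 without FOXO1 and 0.06 with it. In nearly all of them the difference thus lay in the comparison without FOXO1. That comparison also had the larger gaps in FOXL2 and SMAD3 mRNA, at -1.93 and -1.72 against -1.33 and -1.31. Allele, FOXO1 and transfected RNA levels cannot be told apart in these genes. The 172 negative genes had a median length of 3972 bases and a GC content of 59.1%, against 2110 bases and 49.1% over all genes tested. Over length quintiles of all genes, the median log2 fold change rose from -0.07 in the shortest to 0.05 in the longest with FOXO1 and from -0.09 to 0.09 without it. Over GC quintiles it ran from 0.04 to -0.05 with FOXO1 and between -0.02 and 0 without. With offsets for gene length the difference was called in 264 genes, and with offsets for GC content in 161. The count rested on single libraries. It was 45 and 121 without FOXL2-C134W + FOXO1 replicates A and C, 303 without replicate B of that group and 47 without FOXL2-WT + FOXO1 replicate B. It was 56 without FOXL2-WT replicate B, and 423, 78 and 83 without FOXL2-C134W replicates A, B and C.

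HSPG2, which encodes the basement membrane proteoglycan perlecan, was at 228, 249.5 and 199.8 CPM in FOXL2-WT + FOXO1 and at 213, 268 and 205 CPM in FOXL2-C134W + FOXO1. The groups overlapped, with a log2 fold change of 0.02 (95% confidence interval -0.19 to 0.23, edgeR adjusted p = 0.95), whereas without FOXO1 HSPG2 was at 172 ± 6.21 CPM and 319 ± 42.4 CPM, a rise of 0.89. The difference of -0.88 was past the threshold (standard error 0.14, edgeR adjusted p = 0.0065). MKI67, the proliferation antigen Ki-67, was at 24.2, 34.6 and 25.7 CPM against 29.5, 35.1 and 31.9 CPM with FOXO1 (0.18, 95% confidence interval -0.15 to 0.52) and rose by 1.57 without it, from 18.5 ± 0.919 CPM to 54.8 ± 13.0 CPM, with a difference of -1.39 (edgeR adjusted p = 0.0067). Both genes are long, with mean transcript lengths of 10224 and 10684 bases, weighted by TPM. For these genes the FOXO1 conditions lay between FOXL2-WT and FOXL2-C134W, and near Vectors, at 247 ± 16.3 and 34.3 ± 5.81 CPM.

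SMARCA4, the BRG1 ATPase of SWI/SNF complexes, was at 88.8, 89.7 and 87.9 CPM against 82.6, 95.03 and 93.1 CPM with FOXO1 (0.02, 95% confidence interval -0.10 to 0.15), and the difference between the comparisons was -0.65 (edgeR adjusted p = 0.0012). EP400, a chromatin remodeling ATPase, differed by -0.78 (edgeR adjusted p = 0.014), with 24.2, 28.6 and 24.5 CPM against 27.2, 30.1 and 30.1 CPM. KMT2D, a histone H3 lysine methyltransferase, was at 22.2, 30.3 and 23.6 CPM against 28.1, 33.2 and 26.7 CPM and differed by -0.99 (edgeR adjusted p = 0.016). In each of these 3 remodeling genes the replicates with FOXO1 overlapped. Of the collagens, COL4A2 of the basement membrane was at 1692, 1753 and 1689 CPM against 1679, 1872 and 1802 CPM (0.06, edgeR adjusted p = 0.60), with a difference of -0.37 (edgeR adjusted p = 0.011), and COL5A1 gave 0.02 and a difference of -0.55 (edgeR adjusted p = 0.0087). COL18A1 gave -0.01 with FOXO1 and 0.45 without, a difference of -0.47 just outside the threshold (edgeR adjusted p = 0.05 after rounding). MYH9, nonmuscle myosin heavy chain, was at 1299, 1402 and 1296 CPM against 1357, 1544 and 1453 CPM (0.12, edgeR adjusted p = 0.33), and its difference of -0.57 was called (edgeR adjusted p = 0.0016). The filamins FLNA and FLNC gave 0.12 and 0.15 with FOXO1, and their differences of -0.35 and -0.39 were called (edgeR adjusted p = 0.011 and 0.015). ACTN1, alpha-actinin, was higher in every mutant library, at 770.1, 751 and 787 CPM against 816, 866 and 855 CPM, without passing the test (0.14, edgeR adjusted p = 0.17), and its difference of -0.11 did not pass either (edgeR adjusted p = 0.39).

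**Figure D4:**
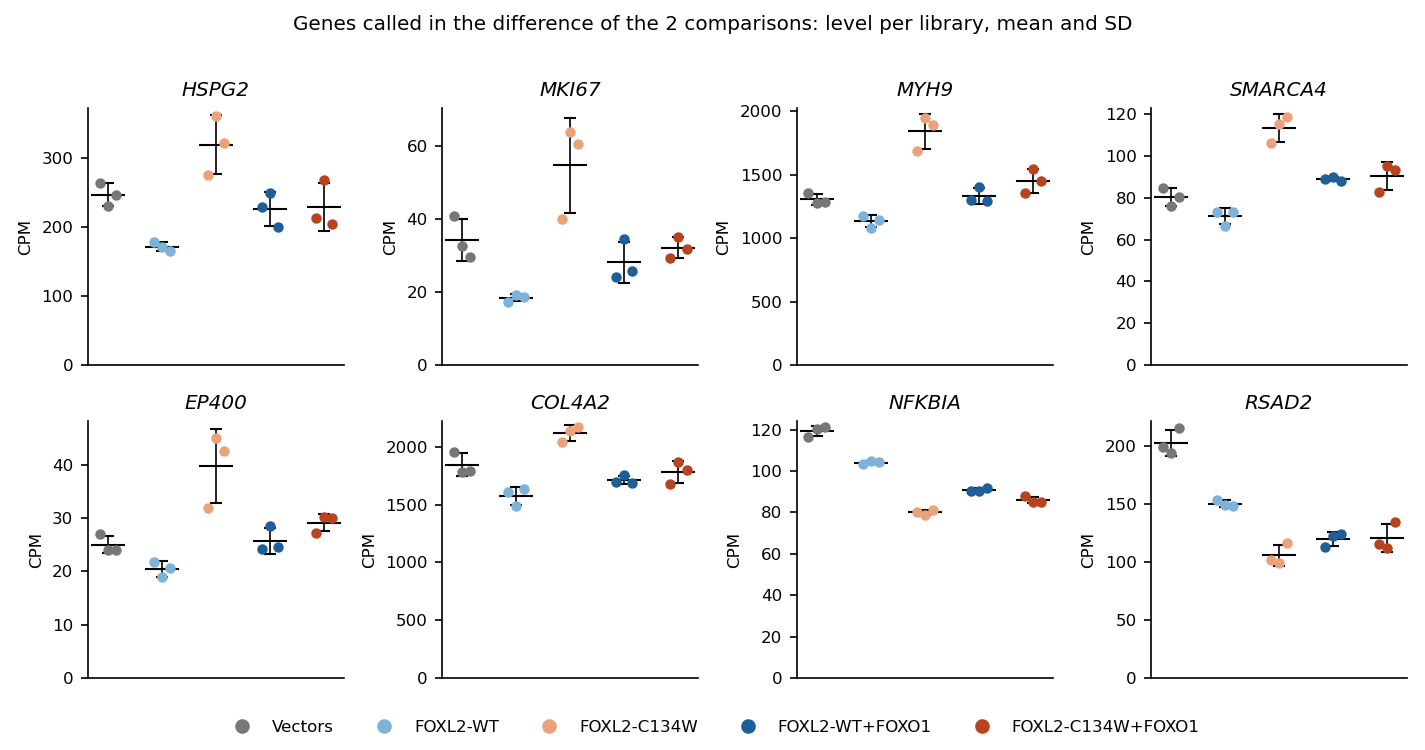
Level in CPM (vertical axes, from 0) of 8 genes called in the difference between the 2 comparisons, in every library of the 5 conditions, with the mean and SD of 3 replicates. FOXL2-C134W stands above FOXL2-WT for HSPG2, MKI67, MYH9, SMARCA4, EP400 and COL4A2 and below it for NFKBIA and RSAD2, while the libraries of the FOXO1 conditions overlap for all but NFKBIA, which differs by -0.08.

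GLI2, a factor of hedgehog signaling, gave a log2 fold change of 0.00 with FOXO1 (edgeR adjusted p = 1) and a difference of -0.79 (edgeR adjusted p = 0.0053). With transcript length offsets in DESeq2 the value of GLI2 with FOXO1 moved to -0.69. RRBP1, a ribosome-binding protein of the endoplasmic reticulum, gave 0.16 and a difference of -0.71 (edgeR adjusted p = 0.013), and MAP1A, a microtubule-associated protein, gave -0.15 and -1.43 (edgeR adjusted p = 0.0080). ARHGAP11B, a recent partial duplicate of ARHGAP11A whose counts are therefore uncertain, gave -0.41 and -1.27 (edgeR adjusted p = 0.032). On the positive side, NFKBIA differed by 0.30 (edgeR adjusted p = 0.0083), RSAD2 by 0.52 (edgeR adjusted p = 0.013), TEF, a PAR bZIP factor, by 0.40 (edgeR adjusted p = 0.05 after rounding, just inside the threshold) and XBP1, a factor of the unfolded protein response, by 0.24 (edgeR adjusted p = 0.042). Each was lower with the mutant without FOXO1 and had a log2 fold change between -0.08 and 0.01 with it. C8orf76 and MTERF3, with called differences of 0.49 and 0.39, instead changed sign. They were at -0.34 and -0.19 without FOXO1 and at 0.15 and 0.19 with it, not called there (edgeR adjusted p = 0.39 and 0.21). DLG5, BAZ2A, EGR1, POLQ, ZYX, TAP1 and AMIGO2 were called without FOXO1, were not called with it, at log2 fold changes between -0.10 and 0.10, and were not called in the difference. SDC4 (syndecan-4) and CDKN2D (the CDK inhibitor p19), at -0.18 and -0.29, and NFKBIZ at -0.29 were lower in every mutant library without passing the test.

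The 569 genes called lower without FOXO1, transfected genes left out, had a median of -0.21 there and of -0.08 with FOXO1, and 83.5% of them lay below 0, against 50.4% of all genes. Of these, 8 were also called lower with FOXO1 and 15 were called in the difference. The 989 genes called higher without FOXO1 had a median of 0.32 there and of 0.06 with FOXO1, and 72.9% lay above 0, against 49.6% of all genes. Of these, 2 were also called with FOXO1 and 169 were called in the difference. Their values without FOXO1 chose them, so the gap between the medians is a description. All 10 genes called in both comparisons changed in the same direction, and they are 58.8% of the 17 genes called with FOXO1 and 0.642% of the 1558 called without. Over all genes the log2 fold changes of the 2 comparisons had a Pearson r of 0.14 as a description across genes, which are not independent replicates.

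**Figure D5:**
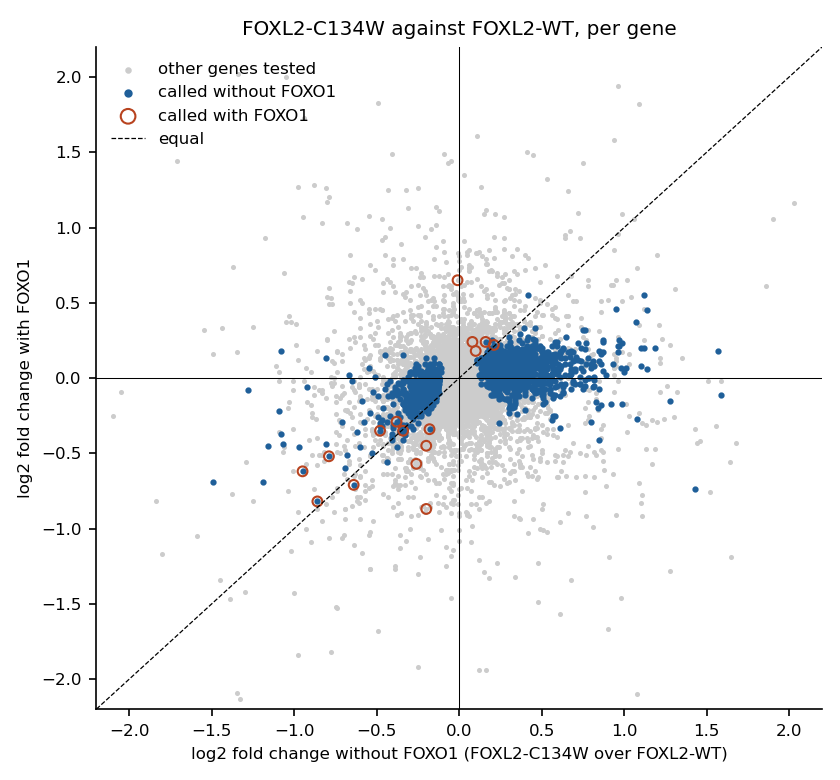
Log2 fold change of FOXL2-C134W over FOXL2-WT without FOXO1 (horizontal axis) and with FOXO1 (vertical axis) for each gene tested, the transfected genes left out. Blue points are called without FOXO1, red circles with FOXO1, the dashed line marks equal values, and 50 genes beyond 2.2 in either direction are not drawn. Genes called higher without FOXO1 lie close to 0 on the vertical axis (median 0.06), whereas 8 called lower without FOXO1 are also called lower with it.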

How the data were processed

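RNA of HGrC1 cells was sequenced as 75-base single-end reads from stranded poly-A mRNA libraries, 3 per condition. Per the labels, the authors quantified reads with Salmon 1.1.0 against hg38 and deposited estimated counts per gene as whole numbers, summed from transcripts with tximport. The authors also deposited lengths, TPM and estimated counts per transcript. Gene lengths were means of transcript lengths weighted by TPM, and effective lengths served the offsets in DESeq2. GC content was weighted likewise, from GENCODE 44 transcript sequences. Plasmid reads were not separated from those of endogenous genes.

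The gene table held 37787 genes, 15042 of them at 0 everywhere. All 15 libraries were fitted together with edgeR 4.0.16 (quasi-likelihood test, TMM, filterByExpr) under R 4.3.3 and limma 3.58.1, which left 13868 genes. The contrasts were FOXL2-C134W + FOXO1 against FOXL2-WT + FOXO1, the same without FOXO1, and their difference. Genes were called at a Benjamini-Hochberg adjusted p under 0.05. No adjusted p is given over a list alone. DESeq2 1.42.0 was an alternative, as were other filters, size factors, offsets for length and GC content (lowess span 0.3), a replicate block and each library left out. The edgeR fit was tested on simulated data. Tables and plots used Python 3.11.15, pandas 2.3.3, numpy 2.4.6, scipy 1.17.1 and matplotlib 3.10.9.

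The named genes were the transfected genes, the 8 highest and 8 lowest called genes without overlap and with a mean of at least 1 CPM, genes the study names in its text, up to 6 called members per list, and the 4 highest and 4 lowest called differences. Called genes beyond these (STK19B and further lower genes) and uncalled members of lists were chosen after their values were seen. There were 15 lists. The members and lists were chosen with earlier results of these data known. Counts of 3 were treated as the floor, which covers counting error only.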

Additional observations from a re-analysis of the deposited data

Results flagged for a closer look

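In 192 genes the change from FOXL2-WT to FOXL2-C134W differed between the conditions with and without FOXO1 by the test of the difference itself. The transfected genes were among them, so allele, FOXO1 and transfected RNA levels cannot be told apart. Of the transfected genes, FOXL2 differed by 0.60, SMAD3 by 0.41 and FOXO1 by -1.41 on the log2 scale. NEAT1 differed by -0.68. Among matrix genes HSPG2 differed by -0.88, COL4A2 by -0.37 and COL5A1 by -0.55. Among chromatin and nuclear genes SMARCA4 differed by -0.65, EP400 by -0.78, GLI2 by -0.79 and MKI67 by -1.39. Among cytoskeletal genes the values were -0.57 for MYH9, -0.35 for FLNA, -0.39 for FLNC and -1.43 for MAP1A. RRBP1 differed by -0.71, and ARHGAP11B, whose counts are uncertain, by -1.27. Positive differences were 0.30 for NFKBIA, 0.24 for XBP1, 0.52 for RSAD2, 0.49 for C8orf76, 0.40 for TEF and 0.39 for MTERF3. PPP1R14BP3, a pseudogene, had 84, 10 and 0 counts with wild-type FOXL2 and FOXO1 and 0 with the mutant, so its fitted difference of -11.07 rests on 1 library and is no bound.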

How the results depend on the processing

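Against 20 calls with FOXO1 there were 141 with DESeq2, of which 11 were among the 20 and the other 9 had no adjusted p, 63 with DESeq2 and transcript length offsets, 13 of them among the 20, 446 with any gene of at least 1 count, 32 with at least 10 counts in every library, 9 with only the groups compared, 48 with gene length offsets, 57 with GC content offsets and 106 with both, an alternative chosen after seeing the data. DESeq2 called 60.3% higher, against 5 of 20. Leaving out 1 library gave 7 to 20. Without FOXO1, 707 genes were called with DESeq2 and transcript length offsets, and 772 to 2120 with a library left out. The difference was called in 365 genes with DESeq2, 113 with DESeq2 and transcript length offsets, 551 with any gene of at least 1 count, and 45 to 423 with a library left out. Fewer or more genes were tested under the filters, and other causes were not tested.

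Replicate letters gave correlations of 0.00697, -0.0184 and -0.0249 between same-lettered libraries, and other pairs lay between -0.05 and 0.068. Such values cannot tell whether same-lettered libraries shared a day or a transfection. With the replicate block 18 genes were called, 17 of them among the 20, and with gene length offsets and the replicate block 40.

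Reversed values were all of uncalled genes with FOXO1. With DESeq2 and transcript length offsets they were 0.07 for ARHGAP11B, 0.01 for EGR1, -0.69 for GLI2, -0.08 for MTERF3, -0.07 for POLQ and 0.01 for ZYX. With gene length offsets, with or without the replicate block, they were -0.01 for BAZ2A, -0.06 for COL5A1, -0.04 for DLG5, -0.02 for GLI2, -0.07 for HSPG2, -0.01 for RSAD2 and -0.02 for SMARCA4. With GC content offsets they were 0.05 for COL18A1, 0.02 for EGR1, -0.03 for RSAD2, -1.1e-03 for TGFB2 and 0.04 for ZYX. With both they were -0.02 for COL5A1, -0.01 for DLG5, -0.03 for HSPG2, -0.04 for RSAD2, -0.02 for TGFB2 and 0.04 for ZYX. GLI2 was at -1.2e-03 with at least 10 counts and at -1.8e-04 with only the groups compared.

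With a library left out, ranges that crossed 0 were -0.01 to 0.08 for BAZ2A, -0.11 to 0.06 for COL18A1, -0.04 to 0.07 for COL5A1, -0.05 to 0.08 for DLG5, -0.07 to 0.07 for EGR1, -0.09 to 0.08 for GLI2, -0.11 to 0.10 for HSPG2, -0.02 to 0.19 for POLQ, -0.07 to 0.06 for RSAD2, -0.02 to 0.08 for SMARCA4, -0.06 to 1.9e-03 for TEF and -0.09 to 0.04 for ZYX. AK4 and PIK3IP1, at a few CPM, lost their calls with any library left out, with values of 0.62 to 0.69 and -0.74 to -0.65, and F3 and ANKRD13A, at higher levels, lost theirs in 5 of 6 sets. The cause was not tested.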
